A study of Mus musculus with 42 samples.

Results

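The genes described here are 6 serpins of the mouse: Serpina3f, Serpina3g, Serpina3i, Serpina3m and Serpina3n of the Serpina3 cluster on chromosome 12, and Serpinb9 on chromosome 13. They are 6 of the 26811 genes in the count table, and they were chosen by name, with their measured levels in these same tumors in view: the levels in all 5 treatment groups, and in both sets of tumors of the aIL2RB groups, selected them. Their levels and fold changes are therefore given as a description, with no test.

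RNA was measured by poly(A) RNA-seq in 42 tumors of MC38, a mouse colon carcinoma line, each from a different female CC75xB6 mouse (an F1 hybrid of the Collaborative Cross strain CC075/UncJ and C57BL/6J, aged 8 to 12 weeks) that was injected with the cells under the skin. The isotype control group (n = 5) received no active antibody, the aPD1 group (n = 6) received a single dose of 200 µg of antibody to PD-1, and 3 further groups received that dose after blocking antibody: aPD1 + aGMCSF (n = 9, 100 µg per dose of antibody to GM-CSF), aPD1 + aIL2RB (n = 11, 200 µg per dose of antibody to the IL-2 receptor beta chain) and aPD1 + aGMCSF + aIL2RB (n = 11, both). Blocking antibodies were given every 3 days from engraftment, tumors of 75 to 110 mm3 were then dosed with aPD1 or its isotype, and all animals were killed 48 h later; by the study's methods, animals without a blocking antibody received its isotype. The comparisons address whether blocking GM-CSF or IL2RB alters what aPD1 does to the tumor transcriptome.

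Serpins are protease inhibitors that work as bait: the protease cuts an exposed loop, the serpin refolds, and both proteins stay locked together. The Serpina3 cluster is the mouse expansion of the single human gene SERPINA3, and its members differ mainly in that loop. Serpina3g (also called Spi2A) stays inside the cell and inhibits cathepsins B and L. Serpina3n is secreted, is an acute-phase protein of the liver, and can inhibit granzyme B outside cells. Serpinb9 is an intracellular inhibitor of granzyme B, the protease that cytotoxic T cells and NK cells deliver through perforin; it protects those cells from their own granzyme, and target cells that carry it from killing.

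In GRCm38 coordinates (GENCODE vM21 gene models) the cluster members all lie on the plus strand: Serpina3f at chr12:104214544-104221129, Serpina3g at chr12:104236245-104241939, Serpina3i at chr12:104263122-104269372, Serpina3m at chr12:104338486-104394257 and Serpina3n at chr12:104406729-104414329. Other genes of the cluster lie between some of them: Serpina3h between Serpina3g and Serpina3i, and Serpina3j between Serpina3i and Serpina3m. Serpinb9 lies at chr13:33003250-33017957, also on the plus strand. The bases just upstream of the start sites (RefSeq promoters, GRCm38.p6, plus strand) are shown for the 5 members that have an entry. Their part in the levels was not tested. Capitals mark matches to any of 3 sets of letters, searched on both strands over the 250 bases before the start site: TTCNNNGAA, the interferon-gamma-activated site (GAS), GAAANNGAAA, the core of the interferon-stimulated response element (ISRE), and GGGNNTTNCC, a kappa B site of NF-kappa B.

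The stretch of Serpina3f is chr12:104214356-104214445, that of Serpina3g chr12:104236047-104236136, that of Serpina3i chr12:104262953-104263042, that of Serpina3n chr12:104406522-104406611 and that of Serpinb9 chr13:33004480-33004539.
Serpina3f: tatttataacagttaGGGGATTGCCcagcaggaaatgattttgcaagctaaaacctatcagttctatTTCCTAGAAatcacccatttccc
Serpina3g: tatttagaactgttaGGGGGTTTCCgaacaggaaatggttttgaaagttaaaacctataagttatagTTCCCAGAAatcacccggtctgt
Serpina3i: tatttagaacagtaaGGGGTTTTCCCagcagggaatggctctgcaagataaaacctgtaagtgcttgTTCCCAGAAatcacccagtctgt
Serpina3n: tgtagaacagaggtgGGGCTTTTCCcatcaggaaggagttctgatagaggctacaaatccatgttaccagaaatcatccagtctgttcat
Serpinb9: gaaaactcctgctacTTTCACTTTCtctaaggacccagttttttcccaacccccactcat

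Each Serpina3 stretch was placed by its first kappa B match, so that match lines up by the choice of window. The stretches of Serpina3f, Serpina3g and Serpina3i resemble each other. Over 90 bases aligned without gaps, 75 are identical between Serpina3g and Serpina3i (83.3%). The values are 71 between Serpina3f and Serpina3g (78.9%) and 70 between Serpina3f and Serpina3i (77.8%). Serpina3n shares 44 of 90 (48.9%) with each of them. Serpina3f, Serpina3g and Serpina3i each hold a kappa B match and, 52 bases downstream of its first base, a GAS match. Relative to the start site, the pair begins at -173 and -121 in Serpina3f, at -85 and -33 in Serpina3g, and at -154 and -102 in Serpina3i, where 2 kappa B matches overlap. Serpina3f has 2 RefSeq starts listed, and its positions are from the one nearest the GENCODE start. Serpina3n holds the kappa B match, at -171, and no GAS match in this window. Serpinb9, listed with a single RefSeq start that lies within the GENCODE gene (none of the 5 stretches overlaps an annotated exon), holds an ISRE match at -46 (TTTCACTTTC on the plus strand) and neither of the other motifs. Of all 32851 RefSeq mouse promoters searched over the same length, 7.02% hold the GAS letters, 2.98% the ISRE letters and 4.11% the kappa B letters. A match describes the letters only.

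**Figure D1:**
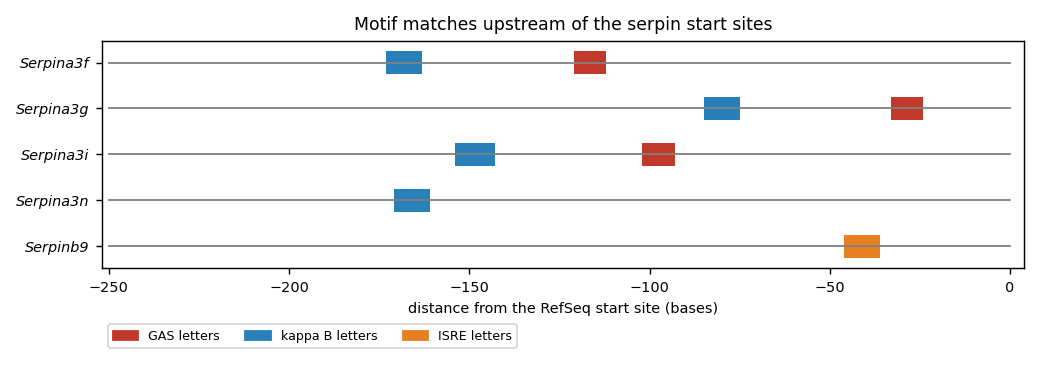
Positions of the motif matches (coloured blocks) in the 250 bases upstream of the RefSeq start site of 5 serpin genes. The horizontal axis is the distance from the start site in bases. Of 2 RefSeq starts listed for Serpina3f, the one nearest the GENCODE start was used. The kappa B and GAS matches keep a spacing of 52 bases in Serpina3f, Serpina3g and Serpina3i, Serpina3n holds the kappa B match alone, and Serpinb9 holds an ISRE match.

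Library totals ranged from 7155486 counts (aPD1 + aGMCSF + aIL2RB replicate 4) to 24101674, and the second lowest was 15109227. Levels are given in CPM, counts scaled to a common library total that TMM corrects for composition. The tumors also fall into 2 sets that follow the replicate numbers (replicates 1 to 6 and 7 to 11 in both aIL2RB groups, divided likewise in the other groups); no label names the division, so what the sets are is not known, and values by set are given for the members. The MC38 marker Shisal2b was present in every tumor, at 8.80 to 31.3 CPM. Of 5 hepatocyte markers listed, 3 (Alb, Apoa1 and Apob) were in the table and summed to at most 0.806 CPM in any tumor. Alb, the defining marker of the cells that secrete Serpina3n in the liver, was at 0 in every tumor of 3 groups and at most 0.0934 CPM in the others.

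The 6 genes differed widely in level. Per kilobase of exon, the aPD1 tumors held a mean of 42.1 CPM for Serpina3g, 10.5 for Serpinb9, 5.94 for Serpina3f, 3.89 for Serpina3n, 0.275 for Serpina3i and 0.00974 for Serpina3m. In the isotype control tumors the order was the same for the 3 highest genes, with 18.5 CPM per kilobase for Serpina3g, 7.61 for Serpinb9 and 2.89 for Serpina3f. Of the 6 members, 5 passed the filter on low counts and Serpina3m did not, with 19 counts in all 42 libraries together and 0 in 33 of them.

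Serpina3g, the intracellular cathepsin inhibitor, was the most abundant member per kilobase in each group, pooled over sets. In CPM it was the one whose group means lay farthest apart, but Serpinb9 averaged more in both aIL2RB groups. The means were 25.9 CPM for Serpinb9 against 19.9 with aIL2RB, and 24.9 against 18.96 with both antibodies. In the second set of aPD1 + aGMCSF + aIL2RB, Serpinb9 was at 22.3 ± 0.806 CPM and Serpina3g at 5.63 ± 4.03. In the isotype control tumors the levels of Serpina3g were 35.2, 53.7, 33.4, 29.8 and 42.2 CPM (mean 38.8 ± 9.44, SD, n = 5). The aPD1 tumors ranged from 62.4 to 114 CPM with a median of 88.6 (mean 88.6 ± 17.9, n = 6), all above the highest isotype control tumor. The fitted log2 fold change of aPD1 against isotype control was 1.19 ± 0.50 (SE), a 2.28-fold higher level. Of all tested genes, 3.38% were higher in aPD1 with no overlap of the groups, and 2 of the 5 tested members, Serpina3g and Serpinb9, were so; since these groups were in view when the members were picked, nothing is read from that count.

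With aGMCSF added, Serpina3g lay between 18.2 and 53.4 CPM with a median of 31.2 (mean 33.8 ± 10.6, n = 9), below every aPD1 tumor. The log2 fold change against aPD1 was -1.39 ± 0.42, a 2.62-fold lower level; 2.20% of all tested genes were lower with no overlap in this comparison, and Serpina3g was the only member among them. With aIL2RB added, Serpina3g ranged from 7.35 to 48.5 CPM with a median of 16.8 (mean 19.9 ± 11.1, n = 11). These 11 tumors were also all below the lowest aPD1 tumor, and 9 of them were below the lowest isotype control tumor.

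The log2 fold change of Serpina3g in aPD1 + aIL2RB against aPD1 was -2.16 ± 0.40, a 4.46-fold lower level, and against isotype control -0.97 ± 0.43. For aPD1 + aIL2RB against aPD1, 2.99% of the tested genes were lower without overlap, and 2 members, Serpina3g and Serpinb9, were. Replicate 9 of aPD1 + aIL2RB stood above the rest of its group at 48.5 CPM, with the next tumor at 30.04; without it the log2 fold change against aPD1 was -2.38. The same tumor was the highest of its group for each of the other 5 genes, at 12.8 CPM for Serpina3f, 1.14 for Serpina3i, 0.284 for Serpina3m, 11.5 for Serpina3n and 29.9 for Serpinb9 (it was singled out after its values were seen).

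With both blocking antibodies Serpina3g spanned 1.23 to 69.0 CPM with a median of 11.3 (mean 18.96 ± 20.04, n = 11), the widest spread of any group. Here 10 of 11 tumors were below every aPD1 tumor, and replicate 1, at 69.0 CPM, overlapped them. The log2 fold change against aPD1 was -2.24 ± 0.41, a 4.72-fold lower level, and no member was lower in all of these tumors than in all aPD1 tumors, as against 0.827% of tested genes. Ordered by their means, the groups ran aPD1, isotype control, aPD1 + aGMCSF, aPD1 + aIL2RB and aPD1 + aGMCSF + aIL2RB. The steps from aPD1 to isotype control and from aPD1 + aGMCSF to aPD1 + aIL2RB were larger than the SD of either group, and the other 2 steps were not. All comparisons with aPD1 share the same 6 aPD1 tumors. In whole tumors, fewer cells that make a transcript and less transcript per cell cannot be told apart.

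**Figure D2:**
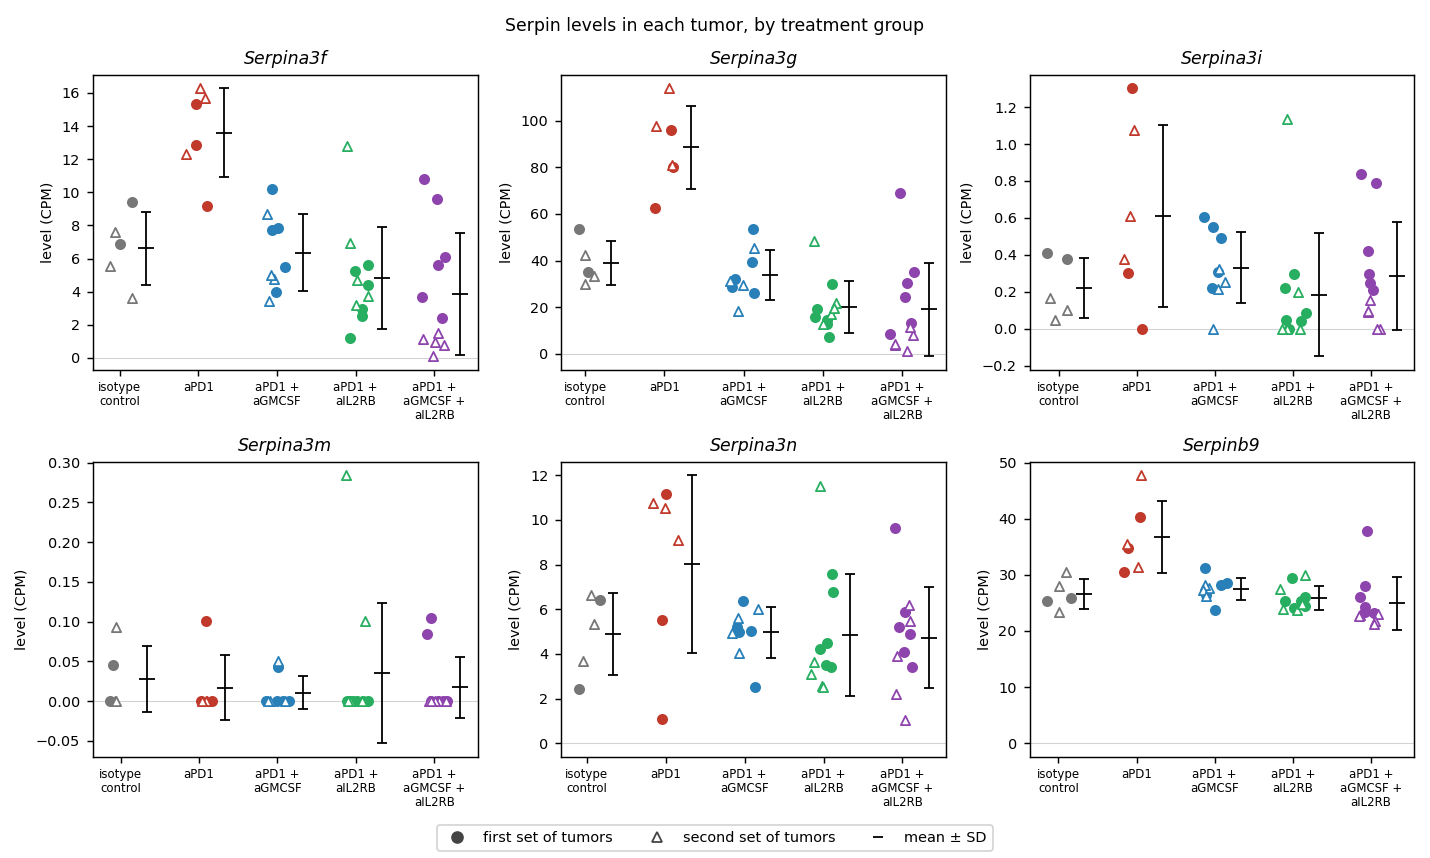
Levels of the 6 serpin genes in each of the 42 tumors (vertical axes in CPM, each gene on its own scale) by treatment group; filled circles are the first set of tumors, open triangles the second, and bars the mean ± SD. Serpina3g and Serpinb9 in the 6 aPD1 tumors lie above all 5 isotype control tumors, while Serpina3m is at 0 in 33 of 42 tumors.

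Serpina3f, which lies beside Serpina3g, followed the same order at a lower level. It stood at 6.89, 9.40, 5.54, 3.59 and 7.61 CPM in the isotype control tumors and between 9.18 and 16.3 in the aPD1 tumors, with a median of 14.1. Of the 6 aPD1 tumors, 5 were above all isotype control tumors, and replicate 2 was within their range. This gave a log2 fold change of 1.04 ± 0.53.

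Serpina3f lay at 3.45 to 10.2 CPM (median 5.48) in aPD1 + aGMCSF, with 8 of 9 tumors below every aPD1 tumor. It ranged from 1.17 to 12.8 CPM (median 4.41) in aPD1 + aIL2RB, where 10 of 11 tumors were below every aPD1 tumor. In aPD1 + aGMCSF + aIL2RB it ranged from 0.103 to 10.8 CPM (median 2.40), with 9 of 11 below. The corresponding log2 fold changes against aPD1 were -1.10 ± 0.45, -1.49 ± 0.42 and -1.86 ± 0.43. Only the step from aPD1 to isotype control in the order of group means exceeded the SD of both groups.

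Serpina3f and Serpina3g share reads. The counts of each were not whole, within 0.15, in 28 of 42 tumors, whereas their sum was whole by the same tolerance in all 42; of the 100-base windows in their transcripts, 3.40% of those in Serpina3f and 3.49% of those in Serpina3g occur in another gene as well, most often Serpina3i. Their sum does not depend on how such reads were divided between them. It was 45.4 ± 11.5 CPM in isotype control, 102 ± 20.5 in aPD1, 40.2 ± 12.8 in aPD1 + aGMCSF, 24.7 ± 14.1 in aPD1 + aIL2RB and 22.8 ± 23.5 in aPD1 + aGMCSF + aIL2RB. The sum kept the separation seen for Serpina3g: all 6 aPD1 tumors were above all isotype control tumors, and all aPD1 + aGMCSF and aPD1 + aIL2RB tumors were below all aPD1 tumors. Serpina3f made up 12.5% to 13.8% of the summed counts in the aPD1 tumors, 13.3% to 19.3% with aGMCSF, 13.8% to 24.2% with aIL2RB and 7.69% to 24.1% with both.

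Serpina3i and Serpina3m were close to the limit of detection. Serpina3i had at most 25 counts in any tumor, and 0 in 8. Its levels were 0.378, 0.411, 0.101, 0.169 and 0.0467 CPM in the isotype control tumors. In the aPD1 tumors Serpina3i ranged from 0 to 1.30 CPM with a median of 0.493, which spanned the whole isotype range. Against isotype control the log2 fold change was 1.45 ± 0.90, and the log2 fold changes against aPD1 were -0.91 ± 0.74 with aGMCSF, -1.73 ± 0.73 with aIL2RB and -1.18 ± 0.72 with both; none of the neighbouring group means differed by more than an SD. Without aPD1 + aIL2RB replicate 9 the value with aIL2RB was -2.79 ± 0.72, and without aPD1 replicate 1 that with aGMCSF was -0.57 ± 0.79. By set, aPD1 against isotype control was at 0.42 ± 1.01 in the first and 2.65 ± 1.29 in the second. Against aPD1, the first set gave -0.30 ± 0.80 with aGMCSF, -2.21 ± 0.83 with aIL2RB and -0.23 ± 0.78 with both. The second set gave -1.83 ± 1.11, -1.40 ± 1.01 and -3.23 ± 1.15. Serpina3m reached 6 counts in aPD1 + aIL2RB replicate 9 and at most 2 elsewhere, a depth at which no difference was detectable. Its gene model overlaps Serpina3k, with which 6.09% of its windows are shared.

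Serpina3n, the secreted member, varied as much within groups as between them. The isotype control tumors held 2.41, 6.43, 5.34, 3.67 and 6.63 CPM. The aPD1 tumors ranged from 1.08 to 11.2 CPM with a median of 9.81: 4 were above every isotype control tumor, and replicate 2 was below all of them. On the log2 scale the difference, pooled over sets, was 0.71 ± 0.41. By set it was 0.43 ± 0.58 in the first, within its SE, and 0.97 ± 0.51 in the second.

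In the blocked groups the medians of Serpina3n were 5.04 CPM with aGMCSF (range 2.53 to 6.35), 3.66 with aIL2RB (2.53 to 11.5) and 4.87 with both (1.03 to 9.64). The log2 fold changes against aPD1 were -0.69 ± 0.35, -0.73 ± 0.33 and -0.77 ± 0.33, pooled over sets. By set they were -0.30 ± 0.46, -0.26 ± 0.44 and -0.11 ± 0.45 in the first and -0.99 ± 0.47, -1.13 ± 0.44 and -1.45 ± 0.45 in the second, each first-set value within its SE. Against isotype control they lay at 0.02 ± 0.38, -0.01 ± 0.36 and -0.06 ± 0.36. No step in the order of group means exceeded the SD.

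Serpinb9, the granzyme B inhibitor, had the smallest pooled log2 fold changes in the comparisons with aPD1, which was not so within the first set, nor for the blocked groups against isotype control. Its levels in the isotype control tumors were 25.3, 25.9, 23.4, 30.4 and 27.9 CPM (mean 26.6 ± 2.69). The aPD1 tumors ranged from 30.6 to 47.8 CPM with a median of 35.2 (mean 36.7 ± 6.41), all above the highest isotype control tumor, with the nearest tumors at 30.6 and 30.4 CPM. The fitted difference was 0.47 ± 0.11 on the log2 scale, a 1.38-fold higher level.

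With aGMCSF Serpinb9 stood at 23.7 to 31.2 CPM (median 27.6), with 8 of 9 tumors below every aPD1 tumor. With aIL2RB it stood at 23.8 to 29.9 CPM (median 25.3), with all 11 below. When both antibodies were given it stood at 21.2 to 37.9 CPM (median 23.3), with 10 of 11 below. The log2 fold changes against aPD1 were -0.42 ± 0.09, -0.51 ± 0.09 and -0.56 ± 0.09.

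Against isotype control, Serpinb9 differed by 0.05 ± 0.10, -0.04 ± 0.10 and -0.09 ± 0.10 in the 3 blocked groups, each within its SE or close to it. For Serpina3g the same log2 fold changes were -0.20 ± 0.45 with aGMCSF, -0.97 ± 0.43 with aIL2RB and -1.05 ± 0.43 with both. By set, Serpina3g against isotype control was at -1.44 ± 0.47 (first) and -0.56 ± 0.40 (second) with aIL2RB, and at -0.57 ± 0.48 and -2.66 ± 0.43 with both. Serpinb9 was at 0.01 ± 0.15 and -0.07 ± 0.11 with aIL2RB, and at 0.08 ± 0.15 and -0.29 ± 0.11 with both. Serpina3f was at -1.16 ± 0.44 and 0.17 ± 0.42 with aIL2RB, so it was below isotype control in the first set and near it in the second, and at -0.38 ± 0.45 and -2.65 ± 0.47 with both. No member was lower than isotype control in every tumor of a group given aIL2RB, as against 0.532% of tested genes in aPD1 + aIL2RB and 0.797% in aPD1 + aGMCSF + aIL2RB. Between both aIL2RB groups, the addition of aGMCSF came with log2 fold changes from -0.37 ± 0.38 (Serpina3f) to 0.55 ± 0.68 (Serpina3i). Single tumors moved these values: without aPD1 + aIL2RB replicate 9 Serpina3i was at 1.61 ± 0.68, Serpina3f at -0.10 ± 0.38 and Serpina3g at 0.14 ± 0.36, and without aPD1 + aGMCSF + aIL2RB replicate 1 they were at 0.20 ± 0.70, -0.68 ± 0.38 and -0.54 ± 0.33. These pooled values join sets that went opposite ways: Serpina3g was at 0.87 ± 0.36 in the first and -2.10 ± 0.40 in the second set, Serpina3f at 0.78 ± 0.34 and -2.81 ± 0.43, and Serpina3i at 1.97 ± 0.73 and -1.83 ± 1.12. Serpinb9 was at 0.07 ± 0.10 and -0.22 ± 0.10, and Serpina3n at 0.15 ± 0.37 and -0.32 ± 0.41.

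**Figure D3:**
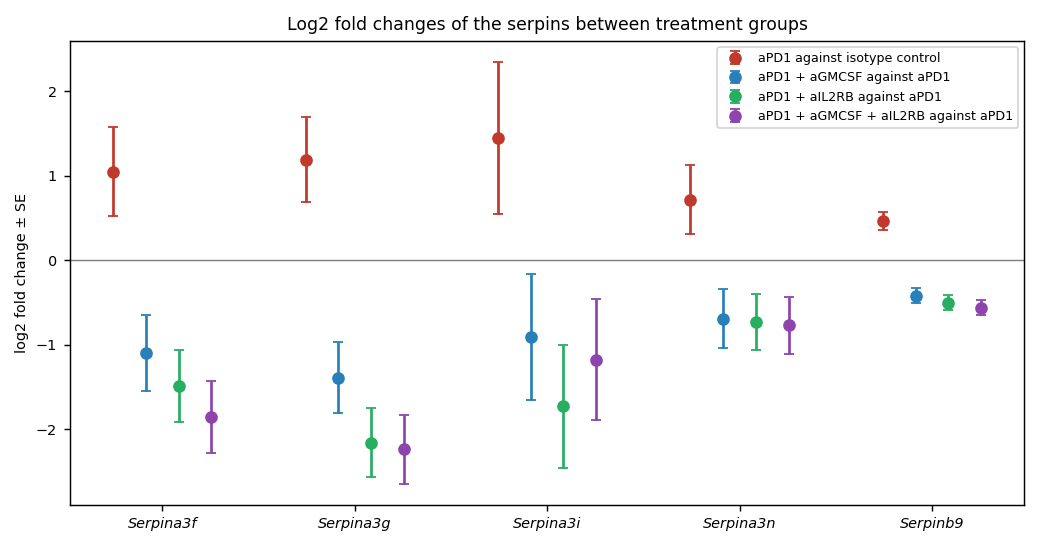
Log2 fold changes with their standard errors (vertical axis) of the 5 serpin genes that passed the filter, for aPD1 against isotype control and for each blocked group against aPD1. Values are above 0 for aPD1 in all 5 genes and below 0 for each blocked group, widest in Serpina3g (-2.24 with both antibodies) and narrowest in Serpinb9 (-0.42 with aGMCSF).

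In both aIL2RB groups, replicates 1 to 6 and 7 to 11 were compared as the members were chosen to be. In aPD1 + aGMCSF + aIL2RB, Serpina3g stood at 8.62 to 69.0 CPM in the first set (median 27.3, n = 6) and at 1.23 to 11.3 in the second (median 4.00, n = 5). The second set held 4 tumors below the whole first set, and replicate 10, at 11.3 CPM, reached into it. The log2 fold change of the second against the first set was -2.43 ± 0.44, or -1.98 without replicate 1.

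Serpina3f in that group stood at 2.40 to 10.8 CPM in the first set and 0.103 to 1.51 in the second, with no overlap and a log2 fold change of -2.81 ± 0.45. Serpina3i ran from 0.210 to 0.838 CPM and from 0 to 0.156 CPM, on at most 16 counts. Serpinb9 ran from 23.3 to 37.9 CPM in the first set and from 21.2 to 23.04 in the second, again without overlap, with a log2 fold change of -0.28 ± 0.10, or -0.16 without replicate 1. Serpina3n overlapped between sets, at 3.41 to 9.64 and 1.03 to 6.17 CPM (-0.56 ± 0.42, or -0.33 ± 0.43 without replicate 1). Of 5 tested members, 3 were thus lower in the second set with no overlap, as against 3.94% of all tested genes; these sets were used in choosing the members, so the count carries no further weight.

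In aPD1 + aIL2RB the same division did not separate the members. Serpina3g stood at 7.35 to 30.04 CPM in replicates 1 to 6 (median 15.1) and at 12.8 to 48.5 in replicates 7 to 11 (median 19.5), with a log2 fold change of 0.54 ± 0.39, or 0.11 without replicate 9. Serpina3f stood at 1.17 to 5.62 and 3.16 to 12.8 CPM (0.78 ± 0.37, or 0.35 without replicate 9). Serpinb9 stood at 24.1 to 29.5 and 23.8 to 29.9 CPM (0.01 ± 0.10), and Serpina3n at 3.42 to 7.57 and 2.53 to 11.5 (-0.10 ± 0.41, or -0.75 without replicate 9). Serpina3i changed sign with that tumor, from 1.23 ± 0.91 to -1.12 without it. No member was lower in the second set without overlap, as against 3.90% of tested genes. The difference between both groups in this respect was not tested.

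Comparisons within a set differ accordingly. Against aPD1 of the same set, Serpina3g in aPD1 + aGMCSF + aIL2RB was at -1.40 ± 0.41 in the first and -4.15 ± 0.43 in the second set, and Serpina3f at -0.99 ± 0.39 and -4.07 ± 0.46. In aPD1 + aIL2RB, Serpina3g was at -2.27 ± 0.41 and -2.05 ± 0.39. For aPD1 against isotype control, Serpina3g was at 0.84 ± 0.55 in the first set (2 isotype control tumors) and 1.49 ± 0.45 in the second. Serpinb9 was at 0.46 ± 0.16 and 0.50 ± 0.12 there.

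**Figure D4:**
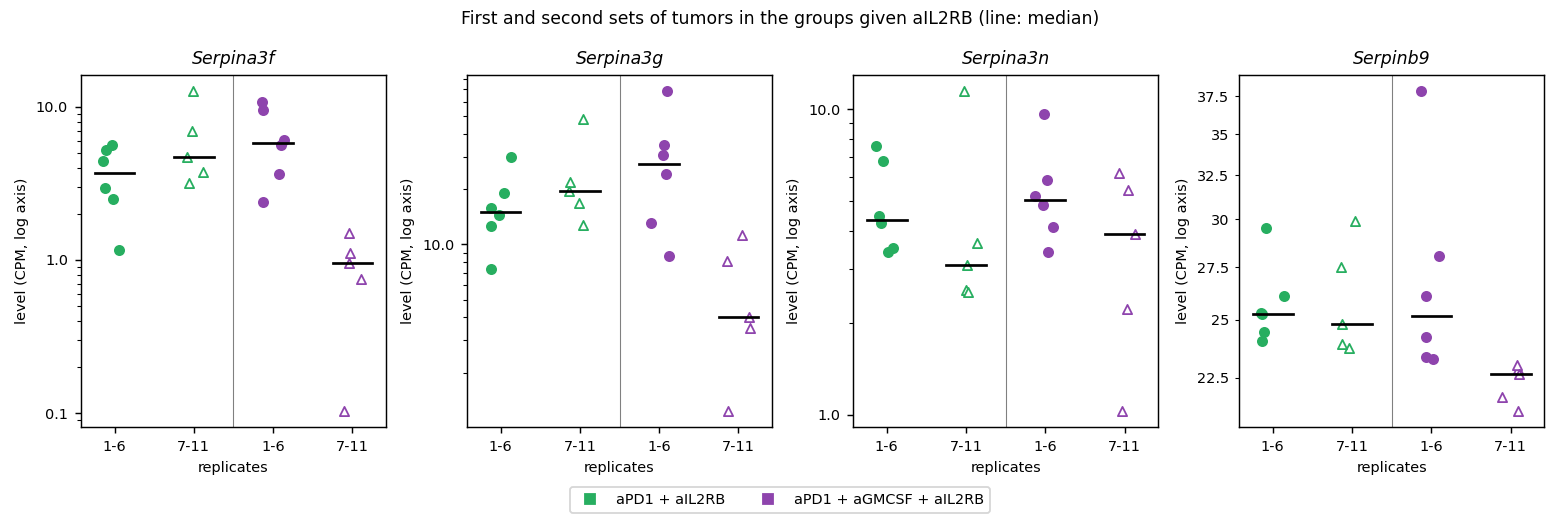
Levels (CPM, log axes) of 4 serpin genes in replicates 1 to 6 and 7 to 11 of both groups given aIL2RB, with the median of each set as a line. In aPD1 + aGMCSF + aIL2RB the second set of Serpina3f (0.103 to 1.51 CPM) lies below the first (2.40 to 10.8 CPM), while in aPD1 + aIL2RB the sets overlap in all 4 genes.

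Markers of leukocytes as a whole, of T and NK cells and of monocytes and macrophages had their highest group means in aPD1, as did each serpin except Serpina3m. The sums of the cDC1, granulocyte, B cell, fibroblast and adipocyte markers were highest there as well. Ptprc, the pan-leukocyte gene, averaged 159 ± 12.7 CPM in isotype control, 312 ± 82.7 in aPD1, 178 ± 29.9 in aPD1 + aGMCSF, 128 ± 28.5 in aPD1 + aIL2RB and 158 ± 84.0 in aPD1 + aGMCSF + aIL2RB. The 5 T and NK cell markers (Cd3e, Cd8a, Cd8b1, Nkg7 and Ncr1), all of them tested, summed to 27.9 to 40.7 CPM in isotype control, 48.2 to 98.3 in aPD1, 20.5 to 55.5 in aPD1 + aGMCSF, 1.98 to 20.9 in aPD1 + aIL2RB and 0.308 to 49.0 in aPD1 + aGMCSF + aIL2RB. In the latter group the sum was 6.76 to 49.0 CPM in the first and 0.308 to 3.18 in the second set, and 1 of the 5 markers was at 0 throughout the second set, as 1 was in all 11 tumors of aPD1 + aIL2RB. The 4 monocyte and macrophage markers summed to 1750 to 2175 CPM in isotype control, 2036 to 3999 in aPD1, 1528 to 1905 in aPD1 + aGMCSF, 1432 to 2320 in aPD1 + aIL2RB and 1253 to 2629 in aPD1 + aGMCSF + aIL2RB. In aPD1 + aGMCSF + aIL2RB this sum also separated by set, at 1932 to 2629 CPM in the first and 1253 to 1438 in the second. Ptprc in that group averaged 208 ± 85.8 CPM in the first and 98.97 ± 17.8 in the second set. In aPD1 + aIL2RB the mean of Serpina3g was 16.5 ± 7.67 CPM in the first and 23.9 ± 14.1 in the second set, a difference that rests on replicate 9 (the log2 fold change was 0.11 ± 0.39 without it). The T and NK sum in these sets was 8.47 ± 6.72 and 3.96 ± 2.60, and the monocyte and macrophage sum 2018 ± 205.2 and 1644 ± 166.2. The 2 cDC1 markers summed to means of 17.4, 19.7, 18.3, 15.6 and 14.5 CPM in the same order of groups; most of that was Clec9a, at means of 13.03 to 14.9, whereas Xcr1 stood at 2.85 ± 0.961, 5.62 ± 2.09, 3.34 ± 1.67, 1.12 ± 0.564 and 1.44 ± 1.34. The granulocyte and B cell markers summed to at most 4.02 and 3.79 CPM. Over the 42 tumors, r of Serpina3g was 0.87 with Xcr1 (0.66 within groups and sets) and 0.24 with Clec9a (cDC1), 0.08 with S100a8 and 0.21 with S100a9 (granulocytes), and 0.08 with Cd79a and 0.30 with Ms4a1 (B cells). It was 0.86 with Ptprc (0.83 within), 0.86 with Cd3e (0.59), 0.91 with Cd8a (0.87) and 0.90 with Cd8b1 (0.81). With Nkg7 it was 0.90 (0.82 within) and with Ncr1 0.64 (0.0007). Among macrophage markers it was 0.82 with Adgre1 (0.55 within), 0.65 with Csf1r (0.47), 0.72 with Lyz2 (0.37) and 0.41 with Apoe (-0.01). Serpinb9 was at 0.85 with Ptprc (0.71 within), and from 0.54 (Apoe) to 0.83 (Adgre1) with the macrophage markers. The MC38 marker Shisal2b had its lowest mean in aPD1, at 15.1 ± 5.11 CPM, against 20.9 ± 2.84 in isotype control, 21.3 ± 5.58 with aGMCSF, 24.6 ± 3.26 with aIL2RB and 20.01 ± 5.81 with both. The 2 endothelial markers summed to means of 100.2 ± 10.8, 125.6 ± 17.4, 116.5 ± 17.1, 122.4 ± 14.3 and 135 ± 13.02 CPM in the order of groups given for Ptprc. The 3 fibroblast markers, none at 0 throughout a group, summed to 442.5 to 766.4 CPM in isotype control, 451 to 1677 in aPD1, 544.9 to 1073 in aPD1 + aGMCSF, 328 to 1081 in aPD1 + aIL2RB and 488.9 to 1144 in aPD1 + aGMCSF + aIL2RB. The means of this sum, in the same order, were 572.8 ± 119.6, 983 ± 413.8, 667.9 ± 165.4, 614.6 ± 204.5 and 703.9 ± 182.5 CPM. The part of these cells in the serpin levels was not tested.

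Each tumor's level was next compared with those of all other tested genes, to name the genes most like each member by Pearson correlation (r) of log2 CPM over the 42 tumors, among genes with a mean log2 CPM of at least 1. The tumors share groups and sets, so r after subtracting the mean of each group and set (r within) was also computed: over the 5 nearest genes it ran from 0.84 to 0.97 for Serpina3g, 0.74 to 0.89 for Serpina3f, 0.73 to 0.84 for Serpina3n, 0.72 to 0.89 for Serpinb9 and 0.64 to 0.72 for Serpina3i. The tumors are not independent draws from a single population, and no p is attached.

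The gene most like Serpina3g was Cxcl9, a chemokine that draws activated T cells, with r = 0.99 (Spearman's rho 0.98, 0.97 within groups and sets). Cxcl9 stood at 470 ± 90.7 CPM in aPD1, 219 ± 48.1 in isotype control, 187 ± 54.3 with aGMCSF, 131 ± 79.9 with aIL2RB and 117 ± 118 with both. Next came Klrk1, the NKG2D receptor of killer cells (r = 0.96), AW112010 (0.96), Nlrc5, which activates MHC class I genes (0.96), and H2-DMa, a chaperone of peptide loading on MHC class II (0.96). Serpina3f was also most like Cxcl9 (r = 0.96, 0.89 within groups and sets), followed by the GTPase gene Iigp1 (0.94), Gm4841 (0.93), Nlrc5 (0.92) and Gbp8 (0.92). Serpina3f and Serpina3g correlated with each other at r = 0.96, a value that the division of shared reads enters.

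Serpina3n was most like another set of genes. Its nearest were Sfrp2, a secreted regulator of Wnt signalling (r = 0.80, rho 0.74), Rarres2, which encodes chemerin (0.78), Tnxb, which encodes the matrix protein tenascin X (0.77), Tinagl1 (0.76) and Svep1 (0.75). With Col1a1, the chief fibrillar collagen of fibroblasts, Serpina3n had r = 0.71 (0.73 within), against 0.41 for Serpina3g, 0.52 for Serpinb9 and 0.56 for Serpina3i. With the fibroblast marker Bgn these values were 0.69 (0.73 within), 0.47, 0.56 and 0.57. With the fibroblast marker Postn they were 0.50 (0.51 within), 0.36, 0.47 and 0.54, so Serpina3n was not the highest there. With Cfd, an adipocyte marker that encodes complement factor D, Serpina3n had r = 0.53, and within groups and sets 0.74, close to that with Col1a1; r was 0.34 (0.37 within) with Adipoq and 0.26 (0.31 within) with Plin1, the other adipocyte markers. The 3 adipocyte markers summed to means of 5.01 ± 4.09 CPM in isotype control, 6.99 ± 5.60 in aPD1, 3.40 ± 3.03 with aGMCSF, 2.96 ± 3.66 with aIL2RB and 2.98 ± 2.33 with both. Within aPD1 the sum was 2.25 ± 2.86 CPM in the first and 11.7 ± 1.71 in the second set, where Serpina3n averaged 5.92 ± 5.05 and 10.1 ± 0.906. The part of adipocytes in the level of Serpina3n was not tested. Its correlation with Cd8a was 0.51 (0.60 within), against 0.91 (0.87 within) for Serpina3g. The other T and NK markers varied. With Nkg7 the values were 0.56 (0.68 within) against 0.90 (0.82 within), and with Cd8b1 0.46 (0.45) against 0.90 (0.81). With Cd3e they were 0.45 (0.40 within) against 0.86 (0.59 within). With Ncr1, at a mean log2 CPM of -1.60, they were 0.18 (-0.15 within) against 0.64 (0.0007 within). Leaving out the 2 tumors farthest from the median of Serpina3n, r with Col1a1 was 0.72 and with Sfrp2 0.75.

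Serpinb9 was most like Hsd17b11 (r = 0.91, rho 0.87), Sdcbp, which encodes the adaptor syntenin-1 (0.90), Fcgr3, an IgG receptor of macrophages and NK cells (0.89), Arl6ip1 (0.89) and Itm2b (0.88). Pearson's r of Serpinb9 exceeded rho for each of these 5; without the 2 tumors farthest from its median, r with Hsd17b11 was 0.88 and with Fcgr3 0.82. Its correlation with Gzmb, its known target, was 0.73 over all tumors and 0.47 within groups and sets, while Serpina3g reached 0.93 and 0.80 with Gzmb. Serpina3i, at its low counts, was nearest to Ptpre (0.78), Cxcl11 (0.76), Napsa (0.75), Slfn10-ps (0.74) and Fam214b (0.74).

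**Figure D5:**
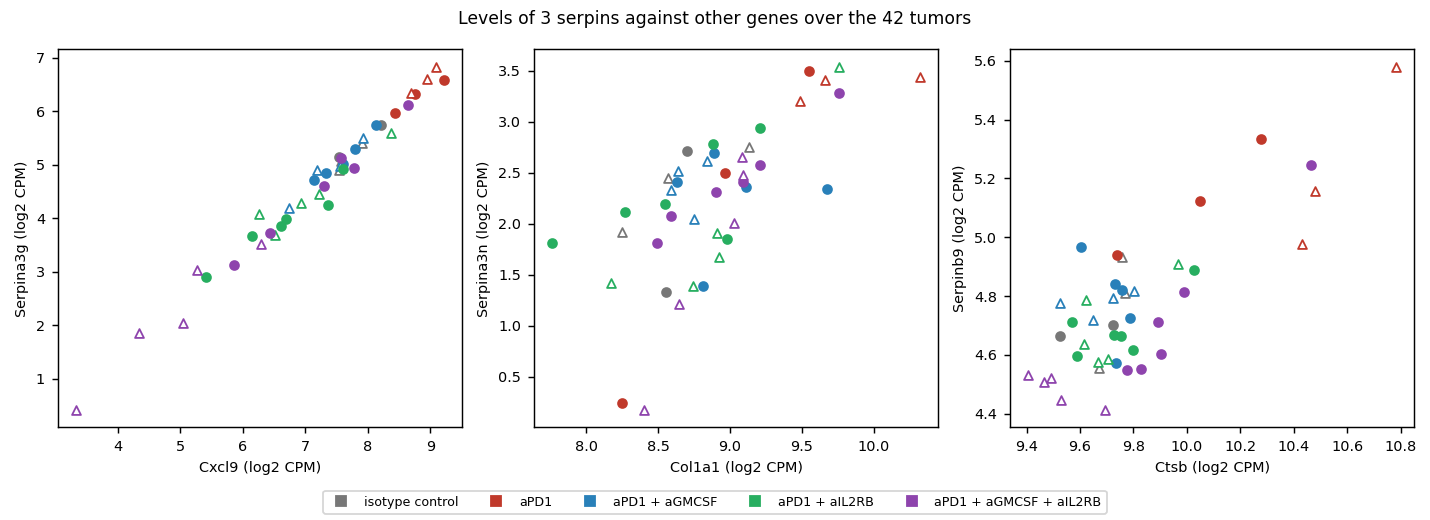
Log2 CPM of Serpina3g against Cxcl9, Serpina3n against Col1a1 and Serpinb9 against Ctsb in each of the 42 tumors, coloured by group (open triangles, second set). Serpina3g and Cxcl9 fall along a line (r = 0.99), Serpina3n and Col1a1 scatter more widely (r = 0.71), and r for Serpinb9 and Ctsb is 0.81. For this last pair rho is 0.62, and r is 0.71 without the 2 tumors farthest from the median of Serpinb9. Ctsb is a target of Serpina3g rather than one named for Serpinb9, and r of Serpina3g with it is 0.70.

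Granzymes, cathepsins, neutrophil proteases and perforin were examined as a list of 19 genes, most of which are not among the targets named above (Gzmb, Ctsb and Ctsl), of which 16 were tested with edgeR's quasi-likelihood test (called at an adjusted p under 0.05 over all 16932 tested genes). After aPD1, 3 of 16 rose and none fell, against 6.17% of all tested genes called higher and 2.54% called lower. The 3 were cathepsins: Ctsb, a target of Serpina3g (log2 fold change 0.64 ± 0.13, adjusted p = 0.0029), Ctss (0.77 ± 0.21, adjusted p = 0.016) and Ctsh (0.64 ± 0.19, adjusted p = 0.026). In the first set alone none of the list was called, in the second set 4, and without aPD1 replicate 4 a single gene. Gzmb, the target of Serpinb9, stood at 18.1 ± 5.20 CPM in isotype control and 46.1 ± 25.2 in aPD1, and its log2 fold change of 1.35 ± 0.70 did not pass (adjusted p = 0.23). The median of the list was 0.57 on the log2 scale, and that of all tested genes -0.0023.

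Most of the list fell under blockade. Against aPD1, 12 of 16 fell with aGMCSF, 13 with aIL2RB and 13 with both, and none rose; of all tested genes 8.75%, 14.5% and 14.3% were called lower and 4.77%, 13% and 13.1% higher. Gzmb stood at 12.5 ± 4.06 CPM with aGMCSF, 3.77 ± 3.88 with aIL2RB and 5.20 ± 8.07 with both. Its log2 fold changes against aPD1 were -1.89 ± 0.59 (adjusted p = 0.027), -3.64 ± 0.59 (adjusted p = 9.0e-06) and -3.25 ± 0.59 (adjusted p = 5.4e-05). Among genes of the list with a mean log2 CPM of at least 1, Gzmf fell furthest with aIL2RB (-6.10 ± 0.69, adjusted p = 3.7e-08), from 48.3 ± 44.3 to 0.728 ± 0.873 CPM, followed by Gzmd (-6.02 ± 0.68) and Gzmc (-5.33 ± 0.55).

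Perforin (Prf1) fell by 3.47 on the log2 scale with aIL2RB (± 0.61, adjusted p = 3.2e-05) and by 2.38 with both (± 0.59, adjusted p = 0.0021), and was at -1.45 ± 0.61 with aGMCSF (adjusted p = 0.11). Ctsb fell in all 3 blocked groups, by 0.63, 0.59 and 0.53 (SE 0.11 in each). Ctsl, the other target of Serpina3g, did not pass in any of the 4 comparisons, with values from -0.20 ± 0.08 to 0.08 ± 0.09. The list medians were -1.55, -3.65 and -2.87, beside medians of all tested genes of 0.0066, 0.0036 and 0.0107. For aPD1 + aGMCSF the count was 0 in the first set alone and 12 in the second; it was 7 without aPD1 replicate 4.

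Cytokines, receptors, kinases, transcription factors and feedback inhibitors of the interferon, NF-kappa B and acute-phase pathways, which can induce serpin genes, made up a list of 27, all tested. After aPD1, 6 rose and none fell, beside 6.17% and 2.54% of all tested genes, among them Ifngr2 and Jak1 of the interferon-gamma receptor pathway, Irf8 (0.84 ± 0.21, adjusted p = 0.011), Tnf (1.07 ± 0.31, adjusted p = 0.024) and Rel, an NF-kappa B subunit (0.44 ± 0.12, adjusted p = 0.015). Ifng itself stood at 1.51 ± 0.936 CPM in isotype control and 4.36 ± 1.06 in aPD1 (1.53 ± 0.64, adjusted p = 0.13). The list median was 0.23. The count was 0 in the first set, 11 in the second, and between 1 (without isotype control replicate 4) and 10 (without aPD1 replicate 2) when a single tumor was left out.

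Against aPD1, 8 of the 27 fell and 1 rose with aGMCSF, 13 fell and 1 rose with aIL2RB, and 12 fell and 1 rose with both. Of all tested genes, 8.75%, 14.5% and 14.3% fell and 4.77%, 13% and 13.1% rose. Tnf fell in all 3, by 1.18 ± 0.26, 1.52 ± 0.25 and 1.62 ± 0.25. Irf1 fell by 0.31 ± 0.11, 0.31 ± 0.10 and 0.52 ± 0.10. Ifng fell with aIL2RB (-2.28 ± 0.51, adjusted p = 6.8e-04) and with both (-2.65 ± 0.53, adjusted p = 1.8e-04), and stood at -1.51 ± 0.53 with aGMCSF (adjusted p = 0.051). The gene that rose was Nfkb2 with aGMCSF (0.15 ± 0.05, adjusted p = 0.049) and Il6st, the shared receptor chain of the IL-6 family, with aIL2RB (0.22 ± 0.05) and with both (0.28 ± 0.05). Il6, an inducer of acute-phase serpins, averaged 0.316 to 0.425 CPM across groups and did not pass in any of the 4 comparisons (adjusted p from 0.75 to 0.98). The list medians were -0.27, -0.17 and -0.27. In the first set alone the counts called against aPD1 were 0, 8 and 1.

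Of 53 other serpins listed, 45 were in the table and 16 were tested. After aPD1, 3 rose and 1 fell, beside 6.17% and 2.54% of all tested genes; Serpine2, a thrombin inhibitor, rose by 0.88 ± 0.17 (adjusted p = 0.0015). With aGMCSF 4 fell and none rose (8.75% and 4.77% of all tested genes), among them Serping1, the complement C1 inhibitor (-0.95 ± 0.28, adjusted p = 0.020) and Serpine2 (-0.68 ± 0.14). With aIL2RB 3 rose and 4 fell of 16, beside 13% and 14.5% of all tested genes. Those that rose were Serpina1d, an alpha-1-antitrypsin gene (1.46 ± 0.24, adjusted p = 9.9e-06), Serpinf1, which encodes the anti-angiogenic factor PEDF (0.45 ± 0.08), and Serpinh1, a collagen chaperone (0.40 ± 0.11); Serpinb6b, a clade B relative of Serpinb9, fell by 1.87 ± 0.43 (adjusted p = 8.4e-04), Serping1 by 1.24 ± 0.27 and Serpine2 by 0.53 ± 0.14. With both antibodies the same 3 genes rose, Serpina1d by 1.26 ± 0.24, and 3 fell (13.1% and 14.3% of all tested genes), with Serpinb6b at -1.77 ± 0.43 and Serping1 at -1.21 ± 0.27. The medians of this list in the 4 comparisons were 0.41, -0.55, -0.41 and -0.25. In the first set alone the counts were 0, 0, 4 and 1, and in the second 4, 5, 7 and 8.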

How the data were processed

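The authors aligned 100 bp paired-end reads with Bowtie 1.2.3 (per the labels) to transcriptomes of the Collaborative Cross founder strains on GRCm38, and gbrs gave the deposited expected counts per gene, summed over haplotypes and not normalized. Reads that fit several genes are divided between them, so values of near-identical paralogs depend on that division. Expected counts were rounded, genes were filtered with filterByExpr (minimum count 10, total 15, leaving 16932 of 26811) and scaled by TMM, and all 42 tumors were fitted by group with edgeR 4.0.16 (R 4.3.3), whose quasi-likelihood test gave p-values adjusted over all tested genes by Benjamini-Hochberg. The study's own tool, DESeq2 (here 1.42.0), was an alternative. Totals per tumor ran from 7155486 to 24101674 counts. Each sample is a separate tumor by the labels; p-values measure the spread between these tumors.

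The members and lists were chosen with earlier results of these data known. Genes named outside the members were the members' 5 most alike genes, known targets and pathway genes (Gzmb, Prf1, Ctsb, Ctsl, Ifng, Irf1, Il6), cell type markers, and in each list and direction up to 4 called genes with the largest change at a mean log2 CPM of at least 1; some genes that this rule names are not reported here. Motifs were searched in RefSeq promoters.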

Additional observations from a re-analysis of the deposited data

Results flagged for a closer look

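In the 15 combinations of a tested member and a group of 5, 6 or 9 tumors, 3 held a tumor far from the others on the log2 CPM scale; chance gives about 1 in 20. Serpina3n in aPD1 replicate 2 (1.08 CPM, 18 counts, next tumor 5.52 CPM) lay at a gap of 0.692 of the group's range. Without that tumor, the log2 fold change of Serpina3n between aPD1 + aGMCSF and aPD1 was -0.92 in place of -0.69. Serpina3n in aPD1 + aGMCSF replicate 5 (2.53 CPM, next 4.02) lay at a gap of 0.502, close to the critical value of 0.493. Serpina3i in aPD1 + aGMCSF replicate 7, at 0 counts where the next tumor had 4, lay at a gap of 0.584.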

How the results depend on the processing

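Of 479 log2 fold changes of members under other settings, 465 moved by less than the spread between tumors, and of 750 with 1 tumor left out, 748. The larger moves were between sets: for aPD1 against isotype control 0.61 (Serpina3f) and 0.84 (Serpina3g) in the first set and 2.65 (Serpina3i) in the second, and for aPD1 + aGMCSF + aIL2RB against aPD1 in the second set -4.07 (Serpina3f), -4.15 (Serpina3g) and -3.23 (Serpina3i). Serpina3i between sets of aPD1 + aIL2RB ran from -1.12 to 1.71 with 1 tumor left out, the lowest without replicate 9.

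Counts of called list genes depended more on settings. For aPD1 against isotype control, other serpins (4) gave 2 with a filter on a total of 5 counts, 0 in the first set and 2 to 5 with 1 tumor left out; proteases (3) gave 0 in the first set and 1 to 3; genes of the interferon, NF-kappa B and acute-phase pathways (6) gave 12 with 10 counts required in every tumor, 0 and 11 by set and 1 to 10. For aPD1 + aGMCSF against aPD1, other serpins (4) gave 8 fitted on only these groups, 0 in the first set and 2 to 5; proteases (12) gave 4 with 10 counts in every tumor, 7 by DESeq2, 0 in the first set and 7 to 13; pathway genes (9) gave 0 in the first set and 3 to 10. For aPD1 + aIL2RB, other serpins (7) gave 4 in the first set, proteases (13) 3 with 10 counts in every tumor, and pathway genes (14) 7 scaled by library size only, 8 in the first set and 9 to 16. For both antibodies, the first set gave 1 other serpin (of 6), 7 proteases and 1 pathway gene (of 13), and 10 counts in every tumor left 3 proteases. The list counts that moved by over 1.5 times with 1 tumor left out did so without aPD1 replicate 4 (2 other serpins, 1 protease and 2 pathway genes for aPD1 against isotype control, 2, 7 and 3 for aPD1 + aGMCSF, and 9 pathway genes for aPD1 + aIL2RB), aPD1 replicates 2 (10 pathway genes), 3 (2 other serpins) and 5 (2 other serpins, aPD1 + aGMCSF), and isotype control replicates 1 (3 pathway genes), 2 and 3 (2 other serpins each) and 4 (2 other serpins and 1 pathway gene). The cause of these moves was not tested.

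Replicate numbers did not pair the tumors: over 67 same-numbered pairs the median correlation of deviations was 0.03, and 16 exceeded 0.1. With a replicate block the counts were 7 proteases for aPD1 + aGMCSF, 10 pathway genes for aPD1 against isotype control and 9 for aPD1 + aIL2RB, and Serpina3g was at 1.19, -1.21, -1.76 and -2.16 in the 4 comparisons. The block moved Serpina3i against aPD1 to -0.44 with aGMCSF and -0.78 with both, and aPD1 + aIL2RB against isotype control to -0.57 for Serpina3g and -0.03 for Serpina3f. It moved aPD1 + aGMCSF + aIL2RB against aPD1 + aIL2RB to -0.39 for Serpina3g and -0.66 for Serpina3f, and Serpina3i against isotype control to 1.04 with aGMCSF, -0.10 with aIL2RB and 0.70 with both. Depth limits Serpina3i and Serpina3m.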
